A study of Mus musculus and Mus musculus musculus x Mus musculus castaneus with 52 samples.

Results

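The genes described here are 55 protein-coding genes of mouse chromosome 12, out of 16687 genes in the expression table. They were taken from a fixed list of chromosome 12 genes with a mean level of at least 2 log2 CPM over the 24 RNA libraries (CPM, read counts scaled to library size), and 55 of the 55 listed genes met that rule. The chromosome itself was picked because its genes were high in the libraries labelled Dusp9+/- clone 1 at 0 h and Dusp9+/- clone 2 at 24 h, so their levels in those libraries are a description and not a test. The listed genes nearest the threshold were Jdp2 at 2.91, Erh at 3.53 and Gphn at 4.19 log2 CPM. The unlisted chromosome 12 genes 3110056K07Rik (2.01) and Fkbp1b (2.02) lay just inside it, and Cmpk2 (1.98) and Twist1 (1.95) just outside.

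The study read RNA from mouse embryonic stem cells (ESCs) and from induced pluripotent stem cells (iPSCs), which are made from somatic cells by reprogramming. In the withdrawal experiment, ESCs grown without feeder cells in serum and LIF, the cytokine that holds them undifferentiated, were collected at 0 h and after 24 h without LIF. Its 8 libraries came from the wild-type female line F121, the wild-type male line V6.5 and 2 female ESC lines, labelled clone 1 and clone 2, that are heterozygous for Dusp9 (Dusp9+/-). Dusp9 is an X-linked phosphatase that acts on the kinase ERK. F121 and the Dusp9+/- lines derive from a musculus by castaneus cross while V6.5 is Mus musculus, so the male and female withdrawal lines also differ in strain. The other 16 libraries were 3 female (LV20, LV21, LV22) and 3 male (LV16, LV4, LV8) Mus musculus iPSC lines at passage 7 (P7) and passage 13 (P13), and the musculus and castaneus ESC lines CM1 and CM2 (female) and CM3 and CM7 (male) at passage 5. The series names the female iPSC lines XO at P13. Each line has 1 library at each passage or time.

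Mouse chromosome 12 carries genes of several basic cell functions: the growth regulators Mycn, Max, Odc1, Rrm2 and Akt1, the RNA-processing enzyme Dicer1, the chaperone Hsp90aa1 and the transcription factor Yy1. Mycn and Max form a pair of DNA-binding factors that recognise the E-box CACGTG, and Odc1, which makes polyamines, is a textbook target of the Myc family.

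The libraries held 8309171 to 14245900 recovered reads. The labels of the Dusp9+/- libraries did not keep their order between the 2 times. Dusp9 itself stood at 5.96 log2 CPM in clone 1 and 7.43 in clone 2 at 0 h, and at 7.71 in clone 1 and 6.58 in clone 2 at 24 h, against 6.93 and 7.84 in F121 and 5.91 and 6.27 in V6.5. The library labelled clone 2 at 0 h therefore held more Dusp9 RNA than F121, and the lower library was clone 1 at one time and clone 2 at the other. The sources used here do not say which part of Dusp9 was deleted, so reads on it may not check the genotype. Across 12719 autosomal genes outside chromosome 12, clone 1 minus clone 2 at 0 h had a Pearson correlation of -0.35 with the same difference at 24 h (-0.38 over 555 X-linked genes). Genes are not independent replicates, and both axes share the labels, so this is a description. Names such as "clone 1 at 0 h" below mean the library with that label.

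Pluripotency markers were present in every withdrawal library. The summed level of 12 of 12 listed markers was 4423 CPM in clone 1 at 0 h and 3357 in clone 2 at 24 h, within the 2951 to 5215 CPM of the other 6. Of 15 fibroblast and feeder markers, all 15 were in the table, and their sum was 260 and 216 CPM in those 2 libraries, below the 399.7 to 1443 CPM of the other 6. The 11 trophoblast markers summed to 357 and 572 CPM there, to 557 CPM in clone 2 at 0 h and 533 CPM in clone 1 at 24 h, and to 56.8 to 148 CPM in F121 and V6.5. The 11 measured primitive endoderm markers (of 12 listed) summed to 805 and 914 CPM, against 676 to 1325 CPM in the other 6. None of these markers was at 0 reads in both libraries, and the part of these sums in the chromosome 12 values was not tested.

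Promoters of the genes were read as a description of the members, whose shared high levels follow from the choice of the chromosome. RefSeq's table for GRCm38.p6 held a start site for 51 of the 55 genes (67 start sites). The 250 bases before the start had a median GC content of 62.0% per gene, against 60.4% for the 8721 genes with a mean of at least 2 log2 CPM that were in the table. The E-box CACGTG, a palindrome, occurred in 4 of 51 members (7.84%), against 10.5% of those 8721 genes and 6.86% of all 27025 genes in the promoter table. The YY1 core AANATGGC, searched on both strands and not overlapping the E-box, occurred in 4 members (7.84%), against 5.47% and 4.49%. These letters are a description of the windows and not of binding. The genes with an E-box were Cfl2, Golga5, Prpf39 and Tmed10, and those with a YY1 core were Alkbh1, Erh, Npc2 and Tmed10. The windows below, 5′ to 3′ on the gene's strand, are those of Gstz1 and Rrm2, which had large differences between the clones at both times, of Prpf39 and Tmed10, which hold the motifs, and of Siva1 and Ckb, which went the other way at 0 h. Capitals mark CACGTG and AANATGGC on either strand.
Gstz1, chr12:87146915-87147164, plus strand: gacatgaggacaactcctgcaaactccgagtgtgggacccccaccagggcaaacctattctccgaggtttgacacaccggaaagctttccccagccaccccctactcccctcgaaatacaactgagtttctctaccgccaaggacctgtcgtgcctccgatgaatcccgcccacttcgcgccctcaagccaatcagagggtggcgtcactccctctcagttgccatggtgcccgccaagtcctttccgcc
Rrm2, chr12:24708004-24708253, plus strand: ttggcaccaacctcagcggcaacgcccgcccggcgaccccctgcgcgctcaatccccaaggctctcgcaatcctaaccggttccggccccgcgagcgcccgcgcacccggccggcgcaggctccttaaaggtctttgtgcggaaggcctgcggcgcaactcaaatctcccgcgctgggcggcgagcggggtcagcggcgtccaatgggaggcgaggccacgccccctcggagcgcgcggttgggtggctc
Prpf39, chr12:65036084-65036333, plus strand: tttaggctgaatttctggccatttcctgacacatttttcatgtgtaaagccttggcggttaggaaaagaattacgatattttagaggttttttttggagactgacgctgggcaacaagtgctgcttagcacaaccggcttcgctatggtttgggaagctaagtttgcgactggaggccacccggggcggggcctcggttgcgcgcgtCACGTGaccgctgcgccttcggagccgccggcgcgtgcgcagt
Tmed10, chr12:85374718-85374967, minus strand: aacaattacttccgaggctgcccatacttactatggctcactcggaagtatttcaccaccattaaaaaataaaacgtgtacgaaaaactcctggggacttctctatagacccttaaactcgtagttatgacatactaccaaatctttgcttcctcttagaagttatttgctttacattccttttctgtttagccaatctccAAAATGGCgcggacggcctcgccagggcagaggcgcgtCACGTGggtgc
Siva1, chr12:112644578-112644827, plus strand: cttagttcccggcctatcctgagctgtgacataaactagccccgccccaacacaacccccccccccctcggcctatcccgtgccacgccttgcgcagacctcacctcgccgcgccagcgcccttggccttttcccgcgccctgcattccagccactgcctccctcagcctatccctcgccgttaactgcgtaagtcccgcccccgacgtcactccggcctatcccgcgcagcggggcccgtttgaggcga
Ckb, chr12:111672339-111672588, minus strand: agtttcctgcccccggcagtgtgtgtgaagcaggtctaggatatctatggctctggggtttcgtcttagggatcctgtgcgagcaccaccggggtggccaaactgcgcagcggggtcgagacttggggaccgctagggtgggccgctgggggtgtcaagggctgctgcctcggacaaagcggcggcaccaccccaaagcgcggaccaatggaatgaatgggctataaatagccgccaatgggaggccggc
In Prpf39 the E-box began 43 bases before the start and in Tmed10 11 bases before it, with a YY1 core that began 49 bases before it. Gstz1, Rrm2, Siva1 and Ckb held neither motif in these windows.

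As the rule implies, the 55 genes were high together in 2 libraries. These are bulk samples, in which more cells of a type and more RNA per cell cannot be told apart. Relative to the mean of the 8 withdrawal libraries, their median deviation was 0.29 (log2) in clone 1 at 0 h, where 45 of 55 were above the mean, and 0.38 in clone 2 at 24 h, where 51 were. In clone 2 at 0 h the median was -0.16 and in clone 1 at 24 h -0.094. It was -0.16 and -0.19 in F121 at 0 h and 24 h, and 0.046 and -0.024 in V6.5. The other 341 chromosome 12 genes at or above the threshold had medians of 0.36 and 0.32 in the high libraries and -0.19 to -0.049 in the other 6. In the 12 iPSC libraries the median of the 55 genes lay between -0.070 and 0.055 from the iPSC mean, and in the 4 CM libraries between -0.012 and 0.018 from the CM mean. The median of chromosome 8 genes was above that of chromosome 12 genes in V6.5 (0.30 and 0.42) and in LV21 (0.29 at P7 and 0.43 at P13), so a high median for 1 chromosome was not limited to the Dusp9+/- libraries.

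**Figure D1:**
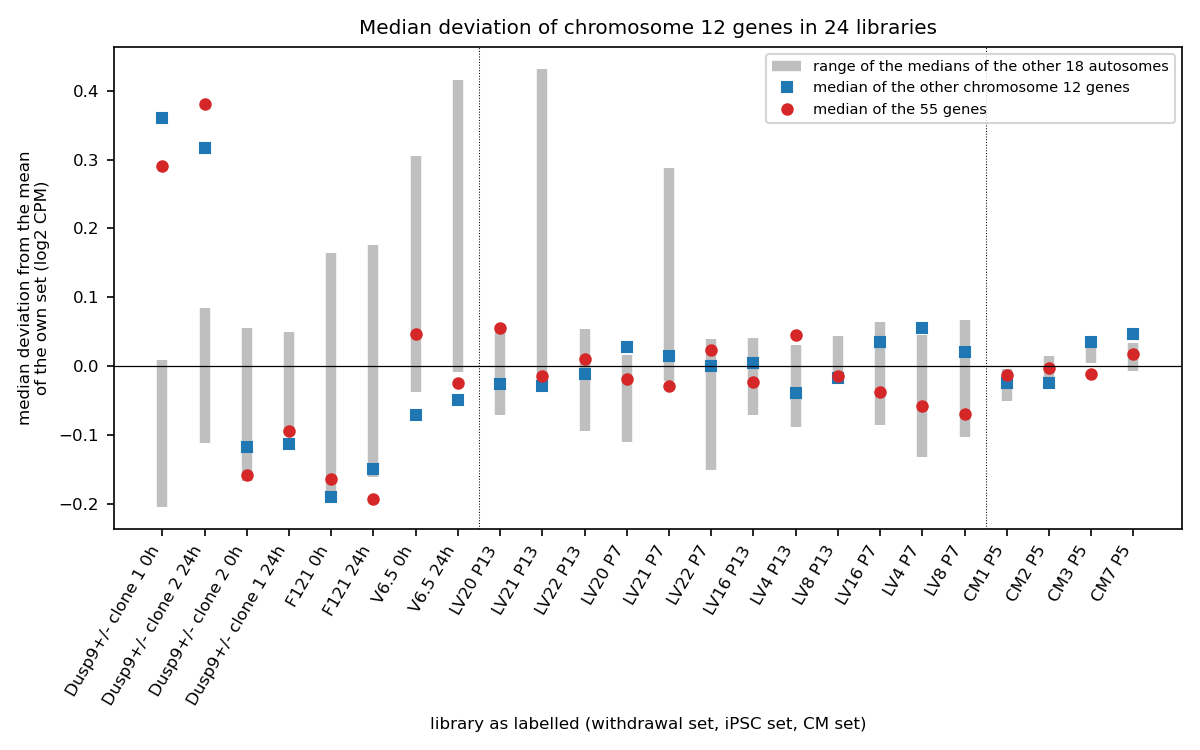
Median deviation (log2 CPM) of the 55 genes (red circles) and of 341 other chromosome 12 genes (blue squares) from the mean of the library's own set, in 24 libraries, with a grey bar from the lowest to the highest median of the other 18 autosomes. The libraries labelled clone 1 at 0 h and clone 2 at 24 h stand above their grey bars at 0.29 and 0.38, and the high ends of the bars in V6.5 and LV21 are chromosome 8.

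Clone 1 minus clone 2 at 0 h had a median of 0.46 over the 55 genes (1.37-fold, quartiles 0.33 and 0.54), and clone 2 minus clone 1 at 24 h a median of 0.45 (1.37-fold, quartiles 0.36 and 0.53). Over all 11185 genes at or above the threshold these medians were 0.015 and 0.0038, and over the other chromosome 12 genes 0.47 and 0.45. At 0 h 51 of 55 genes were higher in clone 1 (background 52.7% of all genes), at 24 h 54 of 55 were higher in clone 2 (background 51.0%), and 50 of 55 did both (background 32.5%). Of the other chromosome 12 genes 303 of 341 did both (88.9%), and on the other 18 autosomes 24.4% to 37.1% did. The rule used this difference, so nothing is read from these shares. On the recovered reads, the 95% interval of the ratio was above 1 at both times for 48 of the 55 genes. These intervals are exact binomial and cover counting error only, with 1 library on each side. The count was not made over all genes and rests on the difference the rule used, so nothing is read from it either.

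**Figure D2:**
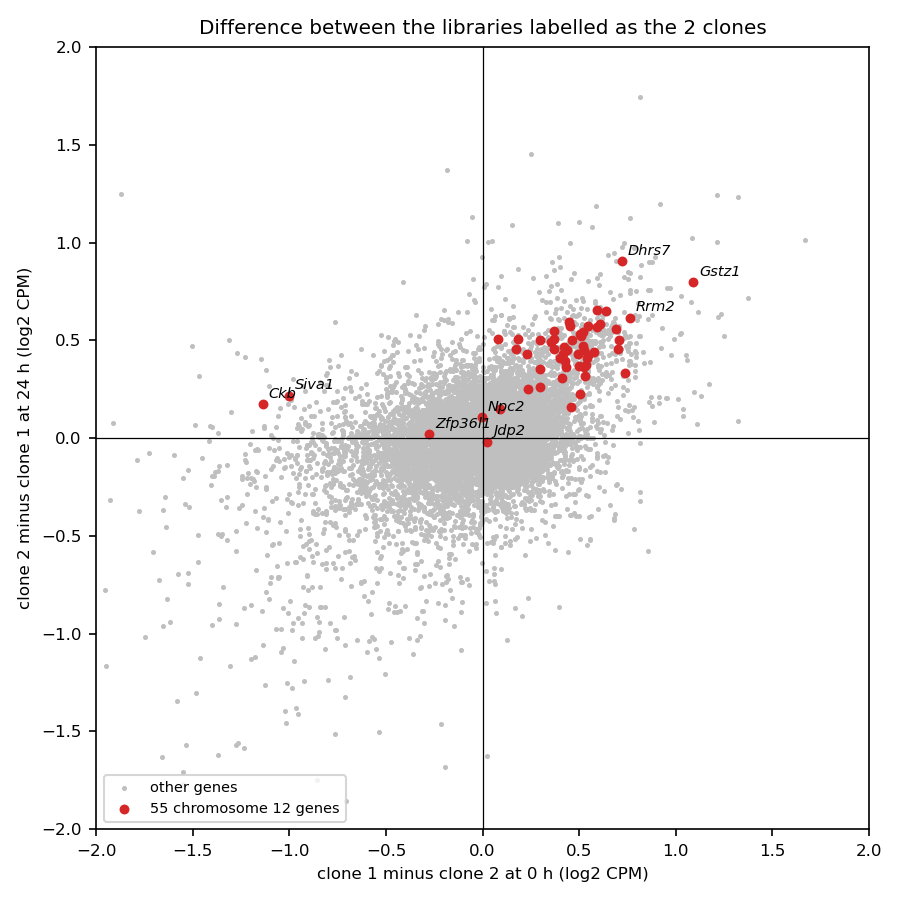
Log2 CPM difference between the libraries labelled clone 1 and clone 2 at 0 h (horizontal) and between clone 2 and clone 1 at 24 h (vertical), 1 point a gene, for 11185 genes with the 55 chromosome 12 genes in red. Of these genes, 50 of the 55 lie to the upper right of 0 around a median of 0.46 and 0.45, with Siva1 and Ckb to the left, and 10 genes lie outside the axes.

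The difference was present along the whole chromosome. In 6 windows of 20 Mb along chromosome 12, each with 43 to 95 genes at or above the threshold, the median at 0 h was 0.53, 0.49, 0.51, 0.50, 0.47 and 0.40 from the first window to the last. At 24 h, clone 2 minus clone 1 gave 0.45, 0.43, 0.47, 0.45, 0.43 and 0.47. The 55 genes lie between Mycn (chr12:12936093-12941836) and Pacs2 (chr12:113014454-113074401, GRCm38.p6), so they span nearly the whole chromosome.

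**Figure D3:**
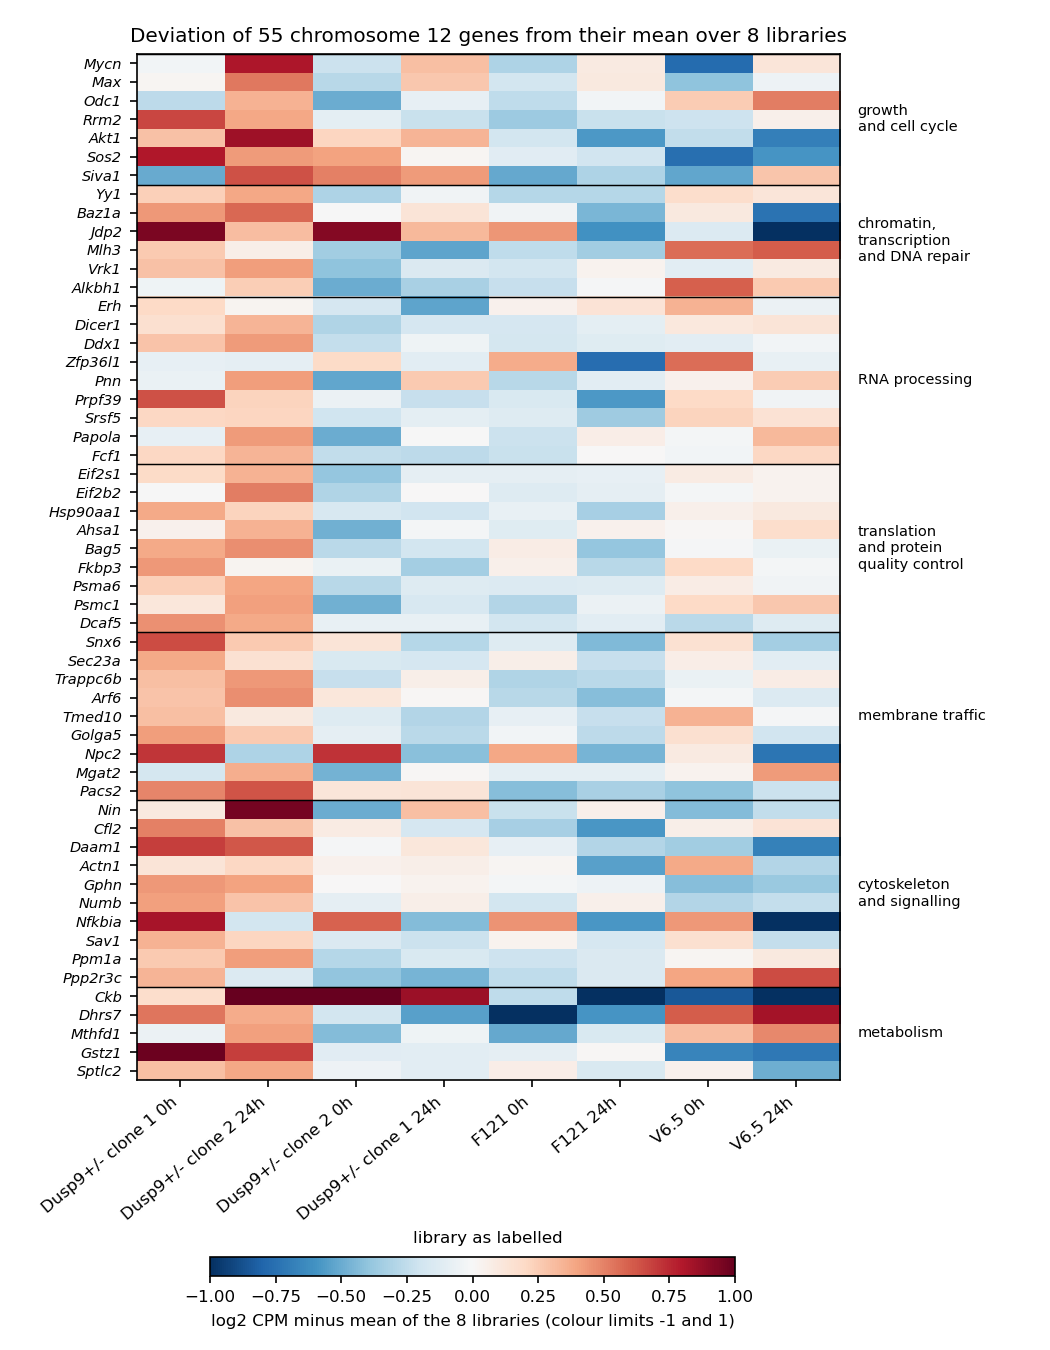
Deviation of each of the 55 genes (rows, grouped by role) from its mean over the 8 withdrawal libraries (columns), in log2 CPM, red above and blue below the mean, with colours cut at -1 and 1. The 2 left columns, clone 1 at 0 h and clone 2 at 24 h, are red in most rows, where 45 and 51 genes are above the mean.

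Of the 7 genes of growth and the cell cycle, 6 were higher in clone 1 at 0 h and 7 in clone 2 at 24 h, with medians of 0.23 and 0.43. Rrm2, the small subunit of ribonucleotide reductase, stood at 8.92 log2 CPM in clone 1 and 8.16 in clone 2 at 0 h, and at 8.03 in clone 1 and 8.64 in clone 2 at 24 h. F121 held 7.89 and 8.03 and V6.5 8.04 and 8.30 at the same times. Both high libraries were above the other 6 for Rrm2, with read ratios of 1.70 (1.63 to 1.77) at 0 h and 1.53 (1.47 to 1.60) at 24 h. Sos2, an exchange factor that activates Ras, also had both libraries above the other 6: 5.92 and 5.55, against 5.52 in clone 2 at 0 h, 5.14 in clone 1 at 24 h, 5.00 and 4.93 in F121 and 4.37 and 4.53 in V6.5.

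Mycn was highest in clone 1 at 0 h and in clone 2 at 24 h among the libraries of the same time, but the 2 libraries were not both above the other 6. It stood at 7.65 in clone 1 and 7.46 in clone 2 at 0 h, at 7.98 and 8.48 at 24 h, at 7.37 and 7.77 in F121 and at 6.91 and 7.80 in V6.5, so it was higher at 24 h in every line. Max, the partner of the Myc proteins, stood at 6.67 and 6.37 in the clones at 0 h, 6.92 and 7.18 at 24 h, 6.47 and 6.75 in F121 and 6.25 and 6.60 in V6.5. Odc1 was highest in V6.5 (7.36 and 7.62), with 6.84 and 6.61 in the clones at 0 h, 7.03 and 7.46 at 24 h, and 6.86 and 7.08 in F121. Akt1, the kinase that carries growth-factor signals from PI3K, was above both wild-type lines in all 4 Dusp9+/- libraries: 6.77 and 6.69 at 0 h and 6.81 and 7.32 at 24 h, against 6.30 and 5.90 in F121 and 6.23 and 5.80 in V6.5. Its clone difference at 0 h was 0.080, with a read ratio whose interval (0.976 to 1.14) includes 1, and at 24 h 0.51.

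**Figure D4:**
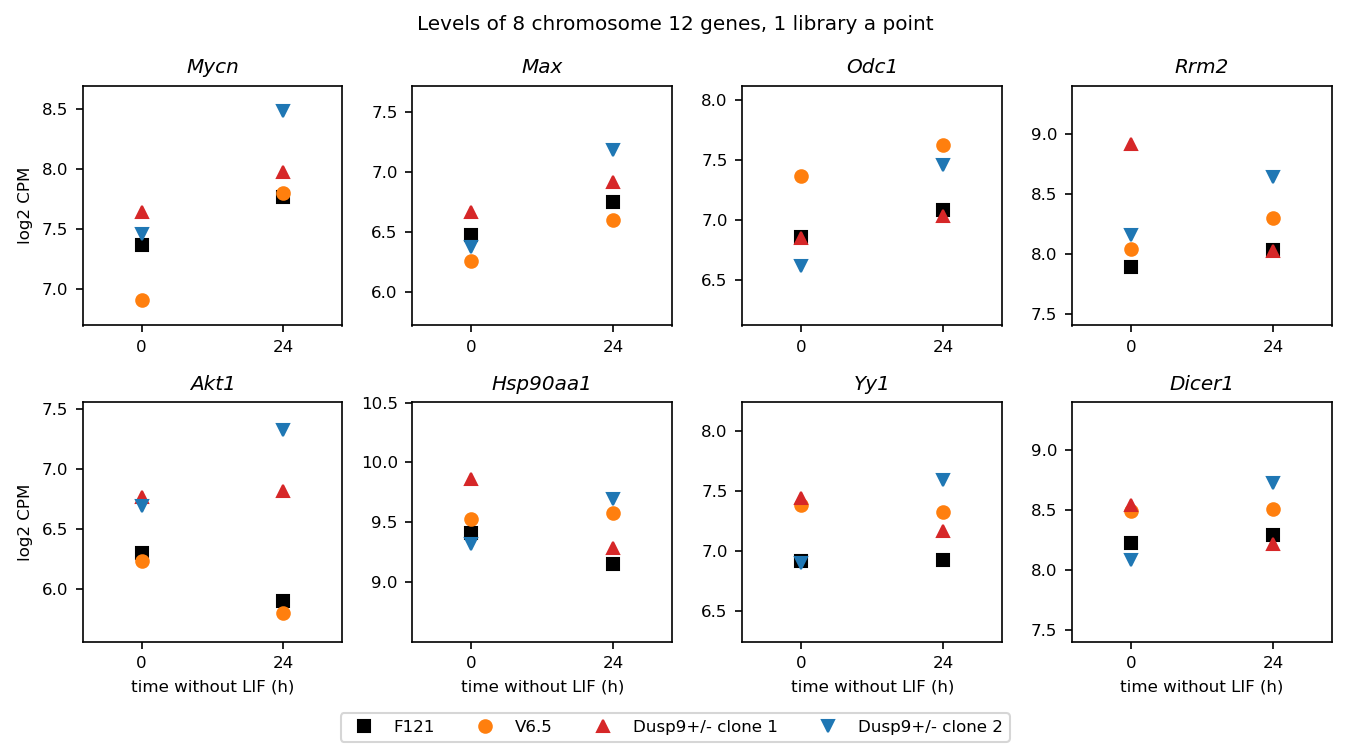
Level (log2 CPM) of 8 of the genes at 0 h and 24 h without LIF, with 1 library a point and marks for F121, V6.5 and the 2 Dusp9+/- clones; each panel spans 2 log2 units. For Rrm2, Hsp90aa1, Yy1 and Dicer1 the red mark is highest at 0 h and the blue mark at 24 h, and Mycn is higher at 24 h than at 0 h in each line.

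The 6 genes of chromatin, transcription and DNA repair had medians of 0.50 at both times, with 6 higher in clone 1 at 0 h and 5 in clone 2 at 24 h. Yy1, a zinc-finger transcription factor, stood at 7.44 and 6.90 in clone 1 and clone 2 at 0 h and at 7.17 and 7.59 at 24 h, with 6.92 at both times in F121 and 7.38 and 7.33 in V6.5. Both high libraries were above the other 6, though V6.5 lay close to one of them. Baz1a, a subunit of nucleosome-sliding complexes, was highest at 7.00 in clone 1 at 0 h and 7.14 in clone 2 at 24 h, against 6.56, 6.69, 6.53, 6.11, 6.66 and 5.82 in clone 2 at 0 h, clone 1 at 24 h, F121 at 0 h and 24 h and V6.5 at 0 h and 24 h. Vrk1, a nuclear kinase, differed by 0.69 at 0 h and 0.56 at 24 h, and Mlh3, a mismatch-repair protein, by 0.61 and 0.58. Mlh3 was nevertheless highest in V6.5 (6.65 and 6.70), as was Alkbh1, a nucleic acid demethylase (6.89 and 6.55). Jdp2, a repressor of the AP-1 family, hardly differed between the clones (0.021 and -0.018). It read 3.66 and 3.64 in clone 1 and clone 2 at 0 h and 3.05 and 3.03 at 24 h, against 3.16 and 2.11 in F121 and 2.58 and 0.54 in V6.5, so at each time both clones were above both wild-type lines.

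Of the 9 genes of RNA processing, 8 were higher in clone 1 at 0 h and 9 in clone 2 at 24 h, with medians of 0.45 and 0.45. Dicer1, which cuts microRNA precursors, stood at 8.55 and 8.08 in the clones at 0 h and 8.22 and 8.72 at 24 h, against 8.22 and 8.29 in F121 and 8.49 and 8.52 in V6.5. Both high libraries were above the other 6, by little over V6.5. Ddx1, an RNA helicase, differed by 0.52 and 0.47 and Prpf39, a component of the U1 splicing particle, by 0.70 and 0.45. Papola, which adds poly(A) tails, differed by 0.41 and 0.43, Srsf5, a splicing factor, by 0.41 and 0.31, and Fcf1, which acts in ribosomal RNA processing, by 0.45 and 0.59. Pnn, a protein of splicing complexes, differed by 0.46 at 0 h and 0.16 at 24 h, and Erh by 0.37 and 0.55. Prpf39 and Fkbp3 overlap by 955 bases in the annotation, so reads there could count for either, depending on how strand was used. Zfp36l1, which speeds the decay of AU-rich mRNAs, went the other way at 0 h.

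The 9 genes of translation and protein quality control were all higher in clone 1 at 0 h and all higher in clone 2 at 24 h, with medians of 0.53 and 0.45. Hsp90aa1, the inducible cytosolic Hsp90, stood at 9.86 and 9.32 in the clones at 0 h and 9.29 and 9.70 at 24 h, against 9.41 and 9.15 in F121 and 9.53 and 9.58 in V6.5, so both high libraries were above the other 6. Its activator Ahsa1 differed by 0.53 and 0.36, the Hsp70 co-chaperone Bag5 by 0.64 and 0.65, and the prolyl isomerase Fkbp3 by 0.50 and 0.37. The translation initiation subunits Eif2s1 (eIF2 alpha) and Eif2b2 (a subunit of its exchange factor) differed by 0.58 and 0.44 and by 0.30 and 0.50. The proteasome subunits Psma6 and Psmc1 differed by 0.51 and 0.52 and by 0.59 and 0.57, and Dcaf5, a substrate receptor of ubiquitin ligases, by 0.52 and 0.45.

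Of the 9 genes of membrane traffic, 8 were higher in clone 1 at 0 h and 9 in clone 2 at 24 h, with medians of 0.43 and 0.39. Pacs2, a sorting protein, read 6.78 in clone 1 at 0 h and 6.92 in clone 2 at 24 h, above 6.41 in clone 2 at 0 h, 6.41 in clone 1 at 24 h, 5.86 and 5.96 in F121 and 5.88 and 6.07 in V6.5. Snx6, a sorting nexin of endosomes, differed by 0.52 and 0.54, Sec23a, a coat protein of vesicles that leave the endoplasmic reticulum, by 0.53 and 0.32, and Golga5, a Golgi tether, by 0.50 and 0.53. Trappc6b, a tethering subunit, differed by 0.54 and 0.37, Arf6, a small GTPase at the cell surface, by 0.18 and 0.45, Tmed10, a cargo receptor, by 0.43 and 0.39, and Mgat2, an enzyme of N-glycan synthesis, by 0.30 and 0.35. Npc2, a lysosomal cholesterol carrier, did not differ at 0 h (7.39 in both clones; ratio 0.997, 0.937 to 1.06) and was 6.25 and 6.36 at 24 h.

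The 10 genes of the cytoskeleton and signalling were all higher in clone 1 at 0 h and all higher in clone 2 at 24 h, with medians of 0.50 and 0.40. Daam1, a formin that builds actin filaments, read 6.88 in clone 1 at 0 h and 6.81 in clone 2 at 24 h, above 6.18 and 6.31 in the other Dusp9+/- libraries, 6.11 and 5.90 in F121 and 5.84 and 5.51 in V6.5. Nin, a centrosome protein, was 5.71 and 5.12 in the clones at 0 h and 5.91 and 6.57 at 24 h, with 5.39 and 5.67 in F121 and 5.18 and 5.37 in V6.5, so clone 1 at 24 h was above clone 1 at 0 h. The actin regulator Cfl2 differed by 0.42 and 0.47, the synaptic scaffold gephyrin (Gphn) by 0.43 and 0.36, the cell-fate adaptor Numb by 0.50 and 0.22 and the Hippo scaffold Sav1 by 0.49 and 0.43. The phosphatases Ppm1a and Ppp2r3c, a subunit of PP2A, differed by 0.55 and 0.57 and by 0.74 and 0.33. Nfkbia, the inhibitor of NF-kappaB, differed by 0.23 and 0.25, and the actin crosslinker Actn1 by 0.091 and 0.15.

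Of the 5 metabolic genes, 4 were higher in clone 1 at 0 h and 5 in clone 2 at 24 h, with medians of 0.37 and 0.49. Gstz1, an enzyme of tyrosine breakdown, had the largest mean deviation of the 55 genes. It read 6.43 and 5.34 in the clones at 0 h and 5.35 and 6.14 at 24 h, against 5.37 and 5.47 in F121 and 4.79 and 4.74 in V6.5, with ratios of 2.13 (1.91 to 2.38) and 1.74 (1.56 to 1.95). Dhrs7, a short-chain dehydrogenase, differed by 0.72 and 0.91, but on 74 to 146 reads, and it was higher in V6.5 (3.75 and 3.97) than in either high library (3.67 and 3.50). The folate enzyme Mthfd1 differed by 0.37 and 0.45 and Sptlc2, a subunit of serine palmitoyltransferase, by 0.35 and 0.49.

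Few genes stood apart from this pattern. Siva1, a pro-apoptotic gene, was lower in clone 1 (3.93) than in clone 2 (4.93) at 0 h, with a ratio of 0.50 (0.41 to 0.59), and differed by 0.22 at 24 h (4.85 in clone 1 and 5.07 in clone 2). F121 held 3.92 and 4.13 and V6.5 3.91 and 4.71. Ckb, the brain creatine kinase, read 5.92 and 7.06 at 0 h (0.45, 0.41 to 0.50) and 6.60 and 6.77 at 24 h, and was higher in all 4 Dusp9+/- libraries than in F121 (5.49 and 4.53) or V6.5 (4.89 and 4.68). Zfp36l1 read 6.00 and 6.27 at 0 h (0.83, 0.75 to 0.91) and 5.97 and 5.99 at 24 h. The annotation holds processed copies named for Ckb, Zfp36l1 and Tmed10, so reads of these genes may be split.

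Of the 55 genes, 27 had both high libraries above the other 6 (background 3.56% of all genes), as had 146 of the 341 other chromosome 12 genes (42.8%). Compared with F121 at the same time, the median of the 55 genes was 0.43 in clone 1 at 0 h (52 higher) and 0.54 in clone 2 at 24 h (54 higher), against -0.063 in clone 2 at 0 h (23 higher) and 0.088 in clone 1 at 24 h (36 higher). Of all 11185 genes, 5272, 5339, 5292 and 5175 were higher than in F121, in the same order of libraries. Of the 341 other chromosome 12 genes, 307, 301, 205 and 183 were. All 4 medians use the F121 libraries as reference. With both clones in 1 group against F121, limma called 0 members at 0 h (5 at an unadjusted p under 0.05; 8.91% of all genes called) and 1 member at 24 h, Actn1 (9 at an unadjusted p under 0.05; 2.55% of all genes called). Since the rule used these libraries, nothing is read from these values and counts.

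Partners of these genes that lie on other chromosomes had median differences near those of all genes. The partner list held 63 genes, and 62 of them lie on other chromosomes and were at or above the threshold. They include subunits of the proteasome, of eIF2 and of eIF2B, co-chaperones, the Myc network, polyamine enzymes, the microRNA machinery and the other subunits of ribonucleotide reductase. Their median difference was -0.012 at 0 h (clone 1 minus clone 2) and -0.018 at 24 h (clone 2 minus clone 1), and 15 of 62 were higher in both comparisons (24.2%, background 32.5%). The 10 proteasome partners had medians of -0.0067 and 0.045, and the 9 Myc network partners -0.12 and -0.042. The listed proteasome subunit left out, Psma3, lies on chromosome 12, and it differed by 0.58 and 0.69. Rrm1, the large subunit that pairs with Rrm2, differed by -0.029 and -0.097, and Hsp90ab1, the constitutive Hsp90, by 0.25 and -0.066. Myc itself was lower in the high libraries (-0.94 and -0.47). Chromosome 12 was picked because its genes were high in those libraries, and the partners were not picked that way. Nothing is therefore read from the contrast between the partners and the chromosome 12 genes, Psma3 included.

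The remaining comparisons were not the ones that chose the chromosome, and they were tested, but the first of them reuses the withdrawal libraries. Each was fitted with limma over all genes, with Benjamini-Hochberg adjustment. Loss of LIF for 24 h was tested over the 8 withdrawal libraries with genotype as a covariate, and 9 of the 55 genes were called, 5 higher and 4 lower (32.7% of all 14335 genes called, 16.8% higher and 15.9% lower). This contrast uses the same libraries that chose the chromosome, with 1 high library at each time. That choice favoured a wide spread between the Dusp9+/- libraries, which enters the spread the change is tested against. The calls and adjusted p-values of this contrast are therefore not independent of the rule and are given as a description. The pluripotency markers summed to 4391 to 5215 CPM at 0 h and 2951 to 3357 CPM at 24 h, and the fibroblast and feeder markers to 260 to 1443 and 216 to 462 CPM. Their part in the changes below was not tested. Mycn was higher at 24 h by 0.66 ± 0.13 (SE, 1.58-fold, adjusted p = 0.0073), in 4 of 4 lines and without overlap between times. Max (0.42 ± 0.10, adjusted p = 0.016), Odc1 (0.38 ± 0.11, adjusted p = 0.038), Papola (0.41 ± 0.12, adjusted p = 0.038) and Pnn (0.41 ± 0.13, adjusted p = 0.043) were higher as well. Nfkbia was lower by 1.15 on the log2 scale (SE 0.13, adjusted p = 0.0010): it fell to 3.95 to 4.88 at 24 h from 5.49 to 5.89 at 0 h. Npc2 fell by 0.96 (SE 0.075, adjusted p = 0.00043), Jdp2 fell by 1.08 (SE 0.24, adjusted p = 0.013) and Zfp36l1 fell by 0.52 (SE 0.17, adjusted p = 0.046). The levels at 0 h and 24 h overlapped for Max, Odc1, Pnn, Jdp2 and Zfp36l1. With each line as a block and the clone numbers crossed at 24 h, the count was 17 (11 higher and 6 lower). This setting was added after seeing the data, and it pairs the 2 libraries for which the chromosome was picked. Nothing is read from its count. With the clones paired by their labels in the block, the count was 5, namely Mycn, Max, Jdp2, Npc2 and Nfkbia. The count was also 5 without either F121 library or either V6.5 library. Without the libraries labelled clone 1 at 0 h and clone 2 at 24 h, 11 members were called, of which 8 were among the 9. No share of all genes is set beside this count, so it is not read as a result about the members.

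The change over 24 h for the 55 genes as a group had a median of 0.0053 in F121 and 0.049 in V6.5, the wild-type lines. It was -0.37 from clone 1 at 0 h to clone 1 at 24 h and 0.51 from clone 2 at 0 h to clone 2 at 24 h, and the medians of all genes were 0.024 to 0.040 in the 4 lines. The choice of the chromosome for clone 1 at 0 h and clone 2 at 24 h fixes these opposite signs, so nothing is read from them. Set side by side without the clone numbers, the medians relative to the mean of the 8 libraries were 0.29 and -0.16 in the Dusp9+/- libraries at 0 h and 0.38 and -0.094 at 24 h.

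In the iPSC lines the question was how levels differ between female and male lines and between passages. The median level of X-linked genes relative to autosomal genes was 0.42, -0.060 and 0.66 (log2) in LV20, LV21 and LV22 at P7, against -0.43 to -0.28 in the male lines at P7, and -0.41, -0.47 and -0.11 in the same female lines at P13. In the male lines at P13 it was -0.39 to -0.33. LV21 thus stood between the other female lines and the male lines at P7, and LV22 above the other 5 lines at P13. Of the 55 genes, 6 were called between passages in the female lines, 4 higher and 2 lower at P13 (9.00% of all 13978 genes called, 4.32% higher and 4.68% lower), and 9 in the male lines, 7 higher and 2 lower (13.0% of all genes called, 7.23% higher and 5.82% lower). As shares of the 55 genes these were 10.9% and 16.4%, near the background. Fibroblast and feeder markers differed in the same direction as passage: their summed level was 631 to 899 CPM at P7 and 946 to 2025 CPM at P13 in the female lines, and 576 to 643 CPM at P7 and 988 to 2500 CPM at P13 in the male lines, with all 15 markers read in each group. The trophoblast sum was 307 to 421 CPM at P7 and 206 to 251 CPM at P13 in the female lines, and 346 to 396 and 176 to 275 CPM in the male lines. The part of these sums in the passage changes was not tested.

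Mycn was higher at P13 in both sexes. In the female lines LV20, LV21 and LV22 it stood at 7.54, 7.79 and 7.69 at P7 and 8.41, 8.25 and 7.91 at P13 (0.52 ± 0.12 SE, adjusted p = 0.023), and in the male lines LV16, LV4 and LV8 at 7.59, 7.61 and 7.40 at P7 and 7.93, 8.20 and 8.17 at P13 (0.57 ± 0.12, adjusted p = 0.010). The groups did not overlap. Odc1, a polyamine enzyme, moved the same way, from 8.12, 8.17 and 8.28 to 8.71, 8.34 and 8.59 in the female lines (0.36 ± 0.093, adjusted p = 0.029) and from 8.26, 8.24 and 8.07 to 8.61, 8.62 and 8.62 in the male lines (0.42 ± 0.093, adjusted p = 0.011). Mlh3 was higher at P13 as well, by 0.55 ± 0.15 in female lines (adjusted p = 0.036) and 0.59 ± 0.15 in male lines (adjusted p = 0.022). Prpf39 was lower at P13 in both sexes, by 0.36 (adjusted p = 0.045) and 0.44 (adjusted p = 0.015).

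**Figure D5:**
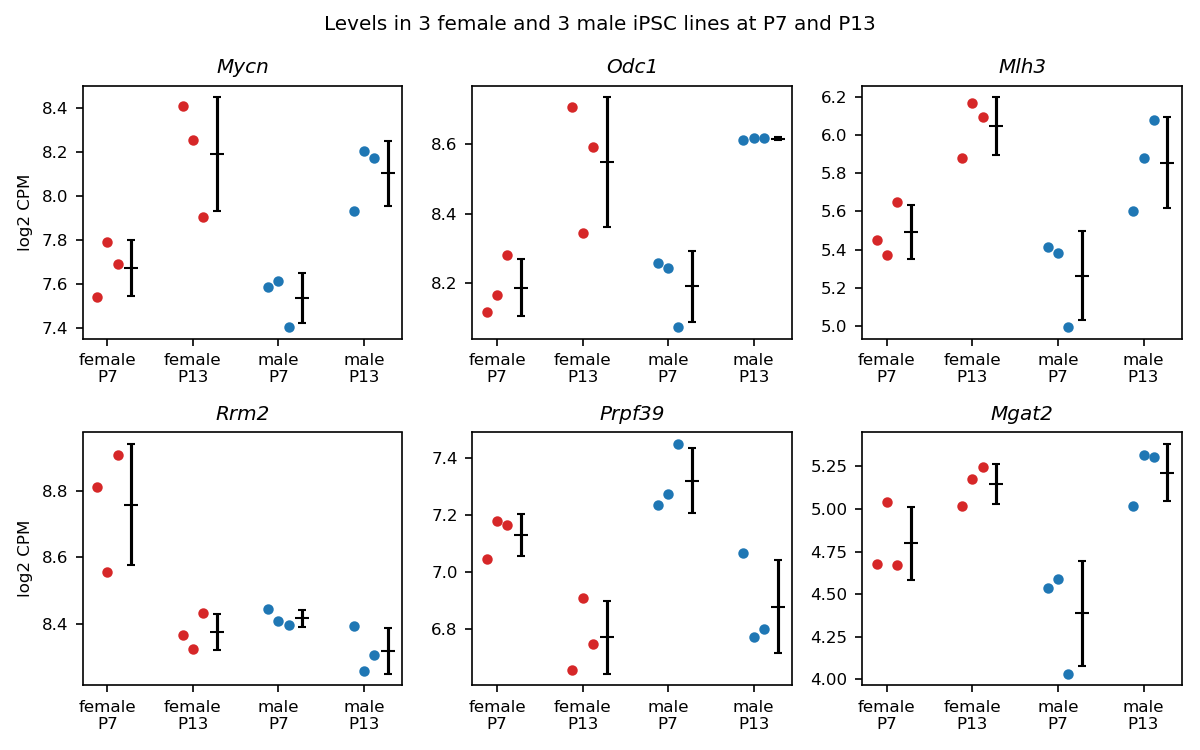
Level (log2 CPM) of 6 of the genes in 3 female (red) and 3 male (blue) iPSC lines at P7 and P13, with each point a line and the bar beside it the mean and SD of 3 lines. Mycn and Odc1 lie higher at P13 in both sexes without overlap, and Prpf39 lies lower.

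Among the other calls in the female lines, Rrm2 fell by 0.38 (SE 0.087, adjusted p = 0.019), from 8.81, 8.55 and 8.91 to 8.37, 8.32 and 8.43 in LV20, LV21 and LV22, and Zfp36l1 was higher by 0.55 ± 0.15 (adjusted p = 0.040). In the male lines Mgat2 was higher by 0.83 ± 0.17 (adjusted p = 0.0085), Psmc1 by 0.34 ± 0.086 (adjusted p = 0.019), Papola by 0.29 ± 0.078 (adjusted p = 0.025) and Alkbh1 by 0.38 ± 0.11 (adjusted p = 0.032), while Dhrs7 fell by 1.00 (SE 0.26, adjusted p = 0.025). The difference between the sexes in the change was tested as an interaction term: limma called 0 of 13978 genes, and among the members 3 had an unadjusted p under 0.05, with a smallest adjusted p of 0.52. No change is therefore shown to differ between the sexes.

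These calls rest on 3 lines a group. In the female lines the count was 0 without LV20 at P13 or LV20 at P7, 2 without LV22 at P13 and 1 without LV22 at P7. With all lines, 16 members had an unadjusted p under 0.05 there (26.3% of all genes). In the male lines the count was 0 without LV4 at P13, 4 without LV8 at P13 and 1 without LV8 at P7. With all lines, 15 members had an unadjusted p under 0.05 there (29.8% of all genes). With LV21 at P7 and LV22 at P13 left out, the counts were 6 and 10, and Odc1, Mlh3 and Prpf39 lost their calls in the female lines. The share of all genes called is not given for the counts with libraries left out.

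Between female and male iPSC lines at P7, 1 of the 55 genes was called (4.78% of all genes called). This comparison shares its P7 libraries with both passage comparisons. Rrm2 stood at 8.81, 8.55 and 8.91 in LV20, LV21 and LV22 and at 8.44, 8.41 and 8.40 in LV16, LV4 and LV8, a difference of 0.34 ± 0.087 (adjusted p = 0.039) with no overlap. It lost its call without LV20, LV22, LV16, LV4 or LV8 and with several other settings (adjusted p up to 0.20). With LV21 at P7 left out 7 members were called, and 6 with LV22 at P13 left out too. No share of all genes is set beside these counts, so they are not read as a result about the members.

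In the CM lines, 7 of the 55 genes were called between female and male (12.0% of all 14117 genes called, 6.97% higher and 5.00% lower), 5 higher and 2 lower in the female lines. The pluripotency markers summed to 6238 to 6304 CPM in the female and 4545 to 5204 CPM in the male lines, and the trophoblast markers to 334 to 343 and 265 to 726 CPM. The fibroblast and feeder sums were 1068 to 1202 and 1036 to 1158 CPM, and the primitive endoderm sums 1084 to 1158 and 966 to 1161 CPM. The pluripotency sums did not overlap between the sexes, and their part in the differences was not tested. Ckb stood at 8.44 and 8.43 in CM1 and CM2 and at 7.58 and 7.62 in CM3 and CM7 (0.84 ± 0.074, adjusted p = 0.00010), and Mthfd1 at 8.42 and 8.48 against 9.01 and 8.99 (-0.55 ± 0.070, adjusted p = 0.00079). Rrm2 was higher in the female lines (0.30 ± 0.074, adjusted p = 0.024), at 9.13 and 9.08 against 8.87 and 8.74. Jdp2 (1.30 ± 0.31, adjusted p = 0.022), Sec23a (0.36 ± 0.091, adjusted p = 0.029) and Npc2 (0.31 ± 0.090, adjusted p = 0.049) were higher as well, and Odc1 was lower (-0.32 ± 0.082, adjusted p = 0.032). The counts that follow, with libraries left out, are not set against a share of all genes. The count was 1 without CM1 or CM2, 14 without CM3 and 11 without CM7, and Ckb kept its call in 8 of 8 alternatives.

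Over the iPSC lines the 55 genes differed in how steady they were. Ddx1 ranged over 0.19 log2 units across the 12 libraries (8.20 to 8.39, median 8.30) and Dicer1 over 0.25 (8.31 to 8.55, median 8.35). Yy1 ran from 6.90 to 7.22 (median 7.02), Akt1 from 6.03 to 6.44 (median 6.25), Max from 6.09 to 6.58 (median 6.28) and Hsp90aa1 from 9.84 to 10.31 (median 9.96). Jdp2 varied most, from 2.23 to 4.23 (median 2.84). In the CM lines CM1, CM2, CM3 and CM7 Mycn stood at 8.00, 7.93, 8.20 and 8.02, Max at 6.46, 6.43, 6.36 and 6.26, Akt1 at 6.41, 6.58, 6.30 and 6.55, Hsp90aa1 at 10.09, 10.12, 10.01 and 9.72, Yy1 at 6.86, 6.89, 7.12 and 7.06 and Dicer1 at 7.83, 7.95, 8.15 and 8.07. None of these last 6 genes was called between female and male CM lines.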

How the data were processed

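RNA was read by single-end sequencing of poly(A) libraries in 24 table columns. The authors deposited log2 CPM values, a unit other than raw counts; per the submitters' processing notes the tools were featureCounts, edgeR and STAR 2.5.3a, with the builds mm10 and GRCm38, and no roles are given. The labels list a technical repeat for each of the 8 withdrawal libraries, while the table has 1 column for each library, and whether the repeat entered it is not given in the sources used here. Values are a floor of 0.183 CPM plus whole multiples of 1 read: 100.0% lay within 0.01 read of a whole number, and reads were recovered from these steps. The 20 chromatin samples were not analysed here.

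The members and lists were chosen with earlier results of these data known. Genes were placed with RefSeq GRCm38.p6 (15225 by symbol, 362 by synonym, 1100 not placed). The deposited log2 values entered limma 3.58.1 (R 4.3.3; lmFit, eBayes with trend, two-sided) if the gene's mean was 1 CPM or more, with Benjamini-Hochberg adjustment over these genes. The fits were also run on simulated data, with a common spread for all genes and no shift shared by a chromosome. The outcome is not given here, so nothing rests on it. A gene was called at an adjusted p under 0.05. Intervals on reads are exact binomial at 95%. Nothing in the labels says that libraries of a line came from separate cultures. In the iPSC and CM comparisons, p-values therefore measure the spread between lines as grown. In the withdrawal comparison, with genotype as a covariate, each wild-type genotype has 1 line. Such a line adds only the deviation of its own change from the common change. Spread between lines enters that fit only through the Dusp9+/- clones.

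Named with values are the 10 members with the largest and the 5 with the smallest mean deviation in the libraries labelled clone 1 at 0 h and clone 2 at 24 h, up to 8 called members of each tested comparison, and Mycn, Max, Odc1, Rrm2, Akt1, Hsp90aa1, Yy1 and Dicer1. The other members are given by their differences. Line names pair P7 with P13 and 0 h with 24 h by the labels. Deviations of a line at P7 and P13 correlated at -0.039 to 0.11 across genes, and the clone difference at 0 h and 24 h at -0.36. Alternatives were other filters, scaling, voom on recovered reads, a line block and leaving out libraries.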

Additional observations from a re-analysis of the deposited data

How the results depend on the processing

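No direction of a called member turned under any alternative run of the tested comparisons. Members that were not called, and the differences between the clones, were not part of this check. Counts of called members moved by over 1.5 times as follows (limma). With no filter on low values the iPSC comparison at P7 gave 0, the female passage comparison 3 and the CM comparison 2. Centring on the median autosomal gene outside chromosome 12 gave 0 at P7. In the fit reported at P7, 16 members had an unadjusted p under 0.05 (21.4% of all genes). The spread of the 6 libraries compared alone gave 0 at P7 and 1 in the female passage comparison. Leaving out both LV21 at P7 and LV22 at P13, chosen after seeing the data, gave 6 at P7. Leaving out 1 library at a time gave 0 to 7 at P7, 0 to 9 in the female and 0 to 11 in the male passage comparison, 1 to 14 in the CM lines and 5 to 10 for 24 h against 0 h; a lone library left in a group is assumed to vary like the others. Voom on the recovered reads gave 1, 4, 9, 7 and 9 members, and 547, 991, 1427, 1592 and 4700 of all genes. For the other alternative settings, here and above, the share of all genes called is not given. Their member counts are therefore not set against a background.

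With the line as a replicate block, the count was 7 in the female and 9 in the male passage comparison, and 5 for 24 h against 0 h. With the clone numbers crossed at 24 h, a replicate block chosen after seeing the data gave 17 for 24 h against 0 h. That block pairs the 2 libraries for which the chromosome was picked, so nothing is read from its count. No paired analysis was possible for P7 or the CM lines because different lines are compared.

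The median of the 55 genes in a library moved with the reference. Against the mean of F121 and V6.5 at the same time it was 0.34 in clone 1 at 0 h, 0.044 in clone 1 at 24 h (against -0.094, so the sign turned), 0.47 in clone 2 at 24 h, -0.073 in F121 at 0 h and 24 h and 0.073 in V6.5 at 24 h (against -0.024). Against the mean of the 4 libraries of the same time it was -0.12 in F121 and 0.0068 in V6.5 at 0 h. As a mean over genes it was -0.097 in clone 2 at 0 h, -0.24 in F121 at 24 h, -0.00099 in V6.5 at 0 h and -0.099 in V6.5 at 24 h. Centred on other autosomes it was -0.21 in clone 2 at 0 h. The cause was not tested.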

Other observations

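The imprinted Dlk1-Meg3 cluster on distal chromosome 12, outside the 55 genes, holds maternally expressed noncoding RNAs. Meg3 stood at 4.66 log2 CPM in clone 1 and 4.26 in clone 2 at 0 h, and at 4.40 in clone 1 and 5.28 in clone 2 at 24 h, above F121 (3.32 and 3.58) and V6.5 (2.53 and 3.10) at both times. Mirg stood at 6.45 and 5.66 in the clones at 0 h and 6.04 and 7.01 at 24 h, and Rian at 6.29 and 5.61 at 0 h, with 5.56 in clone 1 at 24 h and a higher level in clone 2. These 3 genes were higher in clone 1 at 0 h and in clone 2 at 24 h. So were 89.1% of the chromosome 12 genes at or above the threshold. The chromosome was picked for this pattern, so nothing is read from it. Dlk1, a paternally expressed gene of the cluster, held 1 to 12 reads in the 8 withdrawal libraries, too few to compare. Dio3, also of the cluster, held 10 to 83 reads. It stood at 2.67 and 1.83 in clone 1 and clone 2 at 0 h and at 2.35 and 2.76 at 24 h. F121 held 2.68 and 0.91 and V6.5 0.36 and 0.13.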
